A study of Mus musculus with 10 samples.

Results

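The tumour suppressor p53 (gene Trp53), its inhibitors Mdm2 and Mdm4, and 7 p53 target genes were followed through all groups of an RNA sequencing study of mouse medulloblastoma cells. The 10 genes were chosen by symbol: Trp53, Mdm2, Mdm4, Ccng1, Trp53inp1, Sesn1, Zmat3, Plk2, Phlda3 and Rrm2b. Of these, 9 stood in at least 1 of the 3 deposited tables, which together hold 13976 genes. Trp53, Mdm4, Trp53inp1, Sesn1 and Rrm2b were in all 3 tables. The table of THZ1 in SMB56 lacked Mdm2, Ccng1 and Zmat3, Plk2 was in that table alone, and Phlda3 was in none, so it is not analysed here.

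SMB56 is a spontaneous medulloblastoma line from a Ptch+/- mouse, grown as neurospheres and used at passages 10 to 15, and SMB56-shSufu is that line carrying a stable hairpin that targets Sufu, an inhibitor of the hedgehog factors Gli. All treatments lasted 8 hours: SMB56 was given the solvent DMSO, THZ1 at 0.1 µM or GDC-0449 at 1 µM, and SMB56-shSufu was given DMSO or the same THZ1 dose, so every cell of both lines carried the Ptch+/- background. THZ1 is a covalent inhibitor of the transcription kinase CDK7, and GDC-0449 (vismodegib) inhibits the hedgehog receptor subunit SMO. Each of the 5 groups had 2 libraries, which the labels number without saying whether they were separate cultures. A p-value therefore rests only on the spread between these libraries, which the test pools in part over genes. Each line is a single line, and the line cannot be told apart from its table, its depth or its sequencing.

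In the p53 pathway, DNA damage or other stress stabilises p53, a transcription factor that induces genes of cell cycle arrest, repair and cell death. Mdm2 is a ubiquitin ligase that degrades p53 and is itself a p53 target, and Mdm4 binds p53 and blocks its activity. Hedgehog-driven medulloblastoma arises from cerebellar granule neuron progenitors, and loss of p53 speeds its growth in Ptch-deficient mice. The amount of p53 protein is set largely after translation, and these data measure messenger RNA only.

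p53 binds a pair of half-sites of 10 bases each, and RefSeq windows from 250 bases before to 50 bases after a gene's start (build GRCm38.p6) were searched on both strands for the consensus p53 half-site. Windows were found for 7 of the 10 genes, 9 windows in all, and 4 of these held a half-site, against 8.36% of 32851 windows of the same length. These 4 windows, of Trp53 itself, its inhibitor Mdm2 and the targets Ccng1 and Sesn1, are shown because they hold the half-site, whose letters are in capitals. None of the 9 windows held the full pair of half-sites (at most 13 bases apart), which 0.0731% of all windows did, and a match is a description and not a bound site. The Trp53 window is chr11:69580109-69580408 (plus strand, match from 75 bases before the start). The Mdm2 window is chr10:117710709-117711008 (minus strand, from 186 before), the Ccng1 window chr11:40755237-40755536 (minus strand, from 185 before) and the Sesn1 window, at 1 of its annotated starts, chr10:41887189-41887488 (plus strand, from 173 before).
Trp53: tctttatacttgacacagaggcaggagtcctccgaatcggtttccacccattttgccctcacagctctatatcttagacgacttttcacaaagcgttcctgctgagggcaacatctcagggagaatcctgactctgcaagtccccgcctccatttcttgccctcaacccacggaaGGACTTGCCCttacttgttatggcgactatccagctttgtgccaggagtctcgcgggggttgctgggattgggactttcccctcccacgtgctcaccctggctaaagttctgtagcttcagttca
Mdm2: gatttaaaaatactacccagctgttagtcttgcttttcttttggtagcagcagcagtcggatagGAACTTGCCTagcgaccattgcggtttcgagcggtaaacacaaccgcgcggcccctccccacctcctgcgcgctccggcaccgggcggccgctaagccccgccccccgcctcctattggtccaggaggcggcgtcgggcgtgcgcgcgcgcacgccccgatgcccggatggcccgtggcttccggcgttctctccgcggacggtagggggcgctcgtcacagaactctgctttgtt
Ccng1: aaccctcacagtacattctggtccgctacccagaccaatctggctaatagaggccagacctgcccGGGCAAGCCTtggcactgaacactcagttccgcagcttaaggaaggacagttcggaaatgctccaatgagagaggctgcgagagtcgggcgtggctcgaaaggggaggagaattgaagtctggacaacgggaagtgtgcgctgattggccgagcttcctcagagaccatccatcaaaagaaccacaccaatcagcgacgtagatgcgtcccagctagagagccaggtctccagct
Sesn1: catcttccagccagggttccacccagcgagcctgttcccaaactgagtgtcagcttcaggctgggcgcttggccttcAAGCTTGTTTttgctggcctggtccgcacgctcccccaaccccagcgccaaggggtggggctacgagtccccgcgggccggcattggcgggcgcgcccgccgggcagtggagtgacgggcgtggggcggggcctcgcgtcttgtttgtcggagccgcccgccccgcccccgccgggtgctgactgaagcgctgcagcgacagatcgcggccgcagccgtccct

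Total counts ran from 10614268 to 14986389 in the SMB56 libraries and from 30100041 to 33254885 in the SMB56-shSufu libraries. Replicate libraries lay closer to sampling noise in SMB56 (chi-square per gene 1.78 to 3.46) than in SMB56-shSufu (62.4 with DMSO and 26.2 with THZ1). For a given relative spread this value grows with depth, and the tables hold different genes. The part of depth in the gap was not tested. Sufu, the hairpin's target, was 72.6 and 68.1 CPM (counts scaled to library size, with TMM normalization within a table) in SMB56 with DMSO and 18.5 and 19.0 in SMB56-shSufu with DMSO. With THZ1 it was 127 and 134 CPM in SMB56 and 83.4 and 77.9 in SMB56-shSufu, so it was lower in the hairpin line under either condition. Sufu was higher with THZ1 than with DMSO in both lines with TMM normalization. Relative to mitochondrially encoded genes, though, its counts were lower with THZ1 in SMB56. In SMB56-shSufu with THZ1 it stood above SMB56 with DMSO, in tables normalized separately. Of 10 granule neuron progenitor genes 8 or 9 were in each table, microglial and endothelial markers were in none, and 1 of 4 fibroblast markers (Pdgfra) was in the SMB56-shSufu table at 1.30 to 2.37 FPKM. Summed astrocyte markers reached at most 12.8 FPKM and oligodendrocyte markers at most 4.02. In these bulk samples, fewer cells of a type and less RNA per cell cannot be told apart. Mitochondrially encoded genes held 3.29% of all counts in each control library of the GDC-0449 table, 3.70% in the first and 3.52% in the second treated one. In the table of THZ1 in SMB56 they made up 3.75% and 3.74% with DMSO and 7.55% and 6.55% with THZ1. In SMB56-shSufu the share was 5.92% and 8.29% with DMSO and 13.1% and 13.05% with THZ1. The part of this shift in the results was not tested, and folds scaled on these genes are given for members beside the results or in the closing section where call or direction changed.

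**Figure D1:**
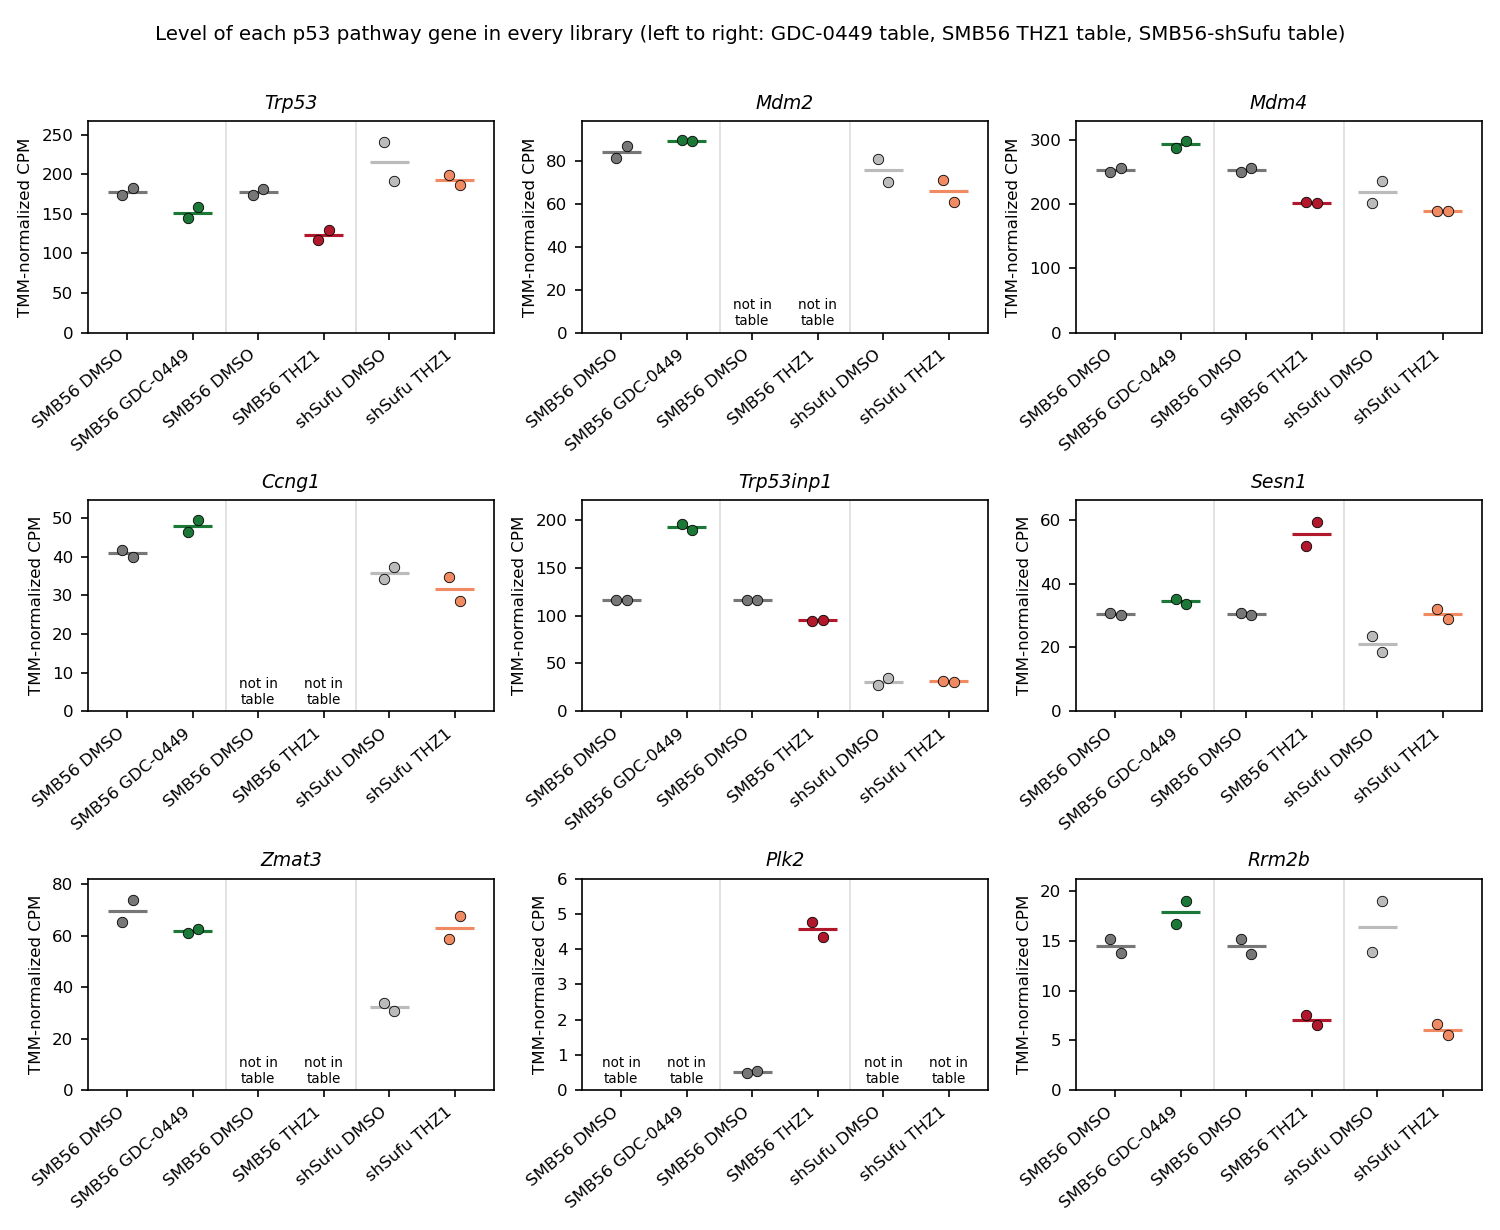
Level of each gene in every library, in TMM-normalized CPM (y axis, from 0; its range differs between panels), by group (x axis); points are libraries and lines are means of 2. Vertical lines separate the 3 tables, which were normalized separately, and the SMB56 DMSO libraries are the same in both SMB56 tables; Trp53inp1 stands near 116 CPM in SMB56 with DMSO, at 196 and 189 with GDC-0449 and between 27.7 and 34.5 in SMB56-shSufu.

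Compared per length, as the authors' FPKM (fragments scaled to gene length and library depth), Trp53 was the most abundant of the members its table held in every group (6 in the table of THZ1 in SMB56 and 8 in each of the others). In SMB56 with DMSO it was 68.3 ± 1.70 FPKM (SD, n = 2), followed by Mdm4 at 44.5 ± 2.16, Mdm2 at 24.5 ± 1.67 and Trp53inp1 at 18.1 ± 0.0990. Ccng1, a cyclin that binds protein phosphatase 2A, was 8.22 ± 0.421 FPKM and Zmat3, an RNA-binding zinc finger protein, 7.66 ± 0.788, and the libraries of these neighbours overlapped. Sesn1, a stress sensor that restrains mTORC1, was 6.68 ± 0.0599 FPKM, and Rrm2b, the p53-inducible subunit of ribonucleotide reductase, 3.18 ± 0.638. Plk2, a polo-like kinase, was 0.0701 ± 0.0344 FPKM. With GDC-0449, Trp53inp1 at 29.0 ± 0.428 FPKM stood above Mdm2 at 26.8 ± 2.04, without overlap of their libraries. In SMB56-shSufu with DMSO, Trp53inp1 (7.83 ± 1.16 FPKM) lay below Ccng1 (10.4 ± 0.425) and overlapped Sesn1 (7.33 ± 1.44), and Zmat3 (4.75 ± 0.527) overlapped Rrm2b (4.27 ± 0.728). With THZ1, Trp53 was 32.1 ± 2.48 FPKM in SMB56 and 48.1 ± 4.14 in SMB56-shSufu, and Mdm4 22.1 ± 0.318 and 25.3 ± 0.118. In the latter group Mdm2 was 13.9 ± 1.81 FPKM, and Sesn1 (6.41 ± 0.699), Ccng1 (6.29 ± 0.803) and Zmat3 (6.10 ± 0.506) overlapped one another.

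The comparison of GDC-0449 with DMSO asked what SMO inhibition did to the pathway in SMB56. Trp53inp1, a p53-induced protein that promotes p53 phosphorylation, cell death and autophagy, rose 1.66-fold, while Trp53 fell 1.18-fold and Mdm4 rose 1.16-fold. Of 8 genes in that table, all of which passed the filter on low counts, 4 were called higher (Trp53inp1, Rrm2b, Ccng1 and Mdm4) and 2 lower (Trp53 and Zmat3). A gene was called at an adjusted p under 0.05 in edgeR's quasi-likelihood test, and 36.3% of the 10008 genes tested were called, 17.5% higher and 18.8% lower. Gli1, the hedgehog target that reports SMO activity, was 169 and 165 CPM with DMSO and 11.3 and 13.4 with GDC-0449.

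Trp53inp1 was 116 CPM in both DMSO libraries and 196 and 189 with GDC-0449. The treated libraries stood far above the controls, with a log2 fold change of 0.73 ± 0.04 (standard error; edgeR adjusted p = 1.13e-15), higher than 99.8% of genes tested. It was called under every alternative tried, including the fit of all 10 libraries together (0.74 ± 0.10, adjusted p = 0.00294), which called 2.00% of 7244 genes and no other of the 5 members it held. The authors' deposited table gives a log2 fold of 0.67 for it.

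Trp53 was 174 and 182 CPM with DMSO and 145 and 158 with GDC-0449, a log2 fold change of -0.24 ± 0.04 (edgeR adjusted p = 4.11e-05). Mdm4 was 249.8 and 256.6 CPM against 288 and 299, a change of 0.21 ± 0.03 (adjusted p = 1.20e-05). For either gene the pairs of libraries did not overlap, DESeq2, which called 16.6% of genes, made the same call, and the authors' deposited table has adjusted p-values of 0.00187 and 0.00178. The share of all genes whose groups did not overlap was not counted, so non-overlap is here and below a description only. The fit of all 10 libraries, whose spread was larger, called neither (adjusted p = 0.334 and 0.259), and Mdm4 was also lost with mitochondrial scaling (0.10) and on log2 FPKM (0.12 with a pseudocount of 1). Within each library, independent of scaling, the ratio of Mdm4 to Trp53 counts was 1.44 and 1.41 with DMSO and 1.99 and 1.89 with GDC-0449. The ratio of Mdm2 to Trp53 counts was 0.468 and 0.477 against 0.618 and 0.564, so both inhibitors were higher relative to Trp53 in each treated library. Mdm2 itself was 81.4 and 86.9 CPM against 89.5 and 89.1, a change of 0.09 ± 0.05 that was not called (edgeR adjusted p = 0.173).

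Ccng1 was 41.80 and 39.999 CPM with DMSO and 46.5 and 49.5 with GDC-0449 (log2 fold change 0.23 ± 0.07). Rrm2b was 15.2 and 13.7 CPM against 16.7 and 19.0 (0.30 ± 0.11), and Zmat3 65.5 and 73.9 against 61.0 and 62.5 (-0.18 ± 0.06). These 3 pairs also did not overlap, which is a description only, and the calls rested on single libraries and on the test. DESeq2 called none of the 3 (adjusted p = 0.121, 0.247 and 0.188), nor did limma on log2 FPKM, where Rrm2b was at -0.01 with a pseudocount of 0.1. Mitochondrial scaling also ended the calls of Ccng1 (0.11) and Rrm2b (0.18), and ribosomal protein scaling that of Zmat3 (-0.15). Without SMB56 DMSO replicate 2 all 3 were lost (edgeR adjusted p = 0.0585, 0.200 and 0.358), with Zmat3 at -0.09, and without GDC-0449 replicate 2 Ccng1 and Rrm2b were lost (0.0778 and 0.234). Without GDC-0449 replicate 1, Zmat3 was lost (0.0785). Sesn1, at 30.7 and 30.3 CPM against 35.3 and 33.5, was not called (0.17 ± 0.07, edgeR adjusted p = 0.0622). By library size and by upper quartile scaling, 5 members were called higher instead of 4, where 2073 and 2123 of 10008 genes were.

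**Figure D2:**
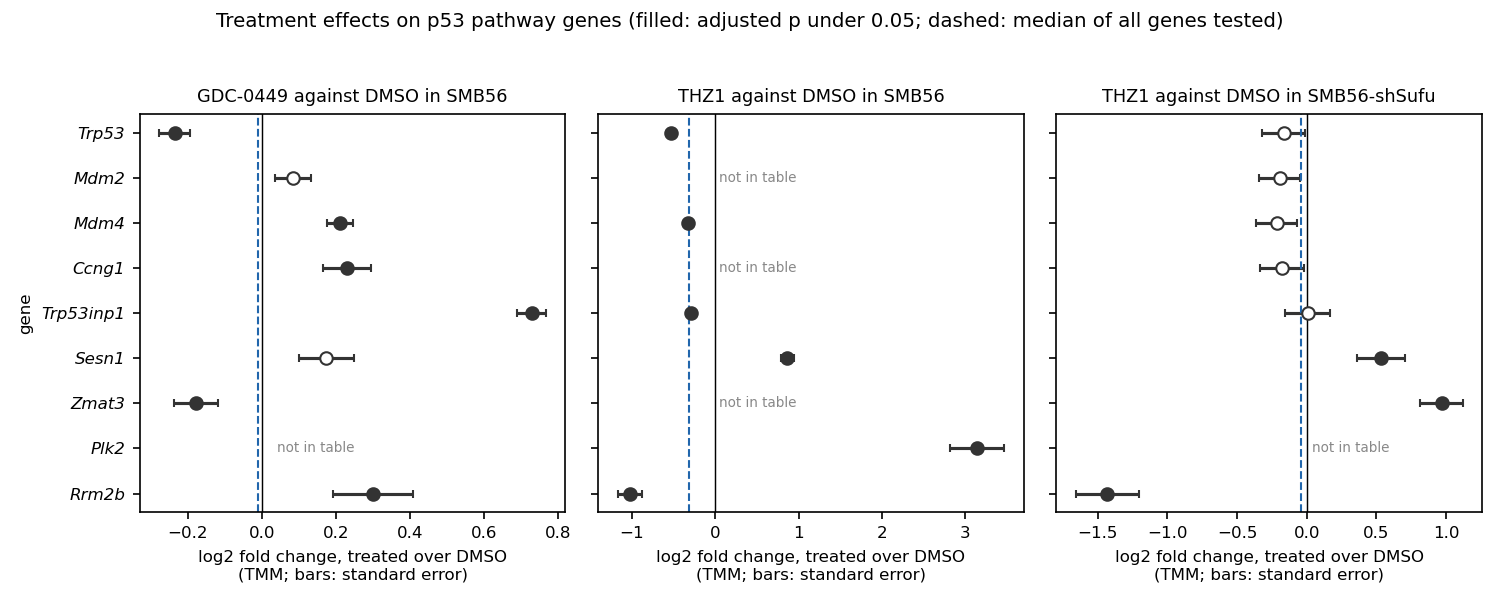
Log2 fold change of each gene over DMSO (x axis, whose range differs between panels) in the 3 treatment comparisons; points are edgeR estimates with TMM scaling, bars are standard errors, and filled points have an adjusted p under 0.05. The dashed line is the median of all genes tested: Trp53inp1 lies at 0.73 with GDC-0449, and Rrm2b lies at -1.03 and -1.43 with THZ1 in the 2 lines, while Plk2 passed the count filter only through its THZ1 libraries.

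The comparison of THZ1 with DMSO in SMB56 asked what CDK7 inhibition did to the same genes. Sesn1 was higher and Rrm2b lower with THZ1. Trp53 was also lower, but its fold, above 42.0% of genes, was not far from the middle of all genes, where Mdm4 and Trp53inp1 sat. All 6 genes in the table were called, 2 higher (Sesn1 and Plk2) and 4 lower, but Plk2 passed the filter on low counts only through its THZ1 libraries and its call is no support for a rise. That table had been selected on this contrast (9999 of its 10007 genes have the authors' adjusted p under 0.05 in the deposited column), and 99.5% of 9863 genes tested were called, 44.3% higher and 55.2% lower, so the count of members called says nothing about them. The median log2 fold of all genes was -0.31 with TMM scaling, -0.01 with DESeq2 size factors, -0.67 by library size and -1.58 when libraries were scaled on mitochondrial genes, so a gene's place among all genes is given beside each fold. That place is among the genes of this selected table only. An adjusted p for THZ1 in SMB56 belongs to a gene already selected on this contrast, so it is no further support for a change.

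Plk2 had 7 and 8 counts with DMSO and 50 and 41 with THZ1, or 0.486 and 0.535 against 4.78 and 4.35 CPM. The THZ1 libraries lay above the controls, with a fitted log2 fold of 3.14 ± 0.33, which is given as a description only, since all of these counts are low, the gene entered the test through the group where it is high, and it stands only in the table selected on this contrast. Sesn1 was 30.7 and 30.2 CPM with DMSO and 51.8 and 59.2 with THZ1, a change of 0.86 ± 0.08 (adjusted p = 1.28e-09), above 71.4% of genes. Its direction turned with mitochondrial scaling (-0.40), and its call was lost with ribosomal protein scaling (0.17, adjusted p = 0.118). Counted within each library, the ratio of Sesn1 to Trp53 counts was 0.177 and 0.166 with DMSO and 0.444 and 0.459 with THZ1.

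Rrm2b was 15.2 and 13.7 CPM with DMSO and 7.55 and 6.58 with THZ1, a log2 fold change of -1.03 ± 0.15 (edgeR adjusted p = 1.52e-06), a fold higher than that of 24.3% of genes. Of its exonic bases 8.04% overlap the antisense gene Gm49085, whose reads cannot be told apart if counting ignored strand. Trp53 was 173 and 182 CPM against 117 and 129, with no overlap, a change of -0.53 ± 0.05 (adjusted p = 4.63e-09), above 42.0% of genes. Both genes were lower in every alternative tried, with Trp53 at -0.23 under DESeq2 size factors. Mdm4 was 249 and 256 CPM against 203 and 201 (-0.32 ± 0.04, edgeR adjusted p = 4.61e-07), and Trp53inp1 was 116 in both DMSO libraries against 94.4 and 95.7 (-0.29 ± 0.05, adjusted p = 2.06e-05). They stood above 49.6% and 50.7% of genes. DESeq2, which called 84.0% of genes, gave -0.02 and 0.02 for this pair, as did its size factors in edgeR, and called neither (adjusted p = 0.812 and 0.834). The fit of all 10 libraries, which called 81.2% of 7244 genes, gave -0.07 and -0.03 and called neither (0.482 and 0.775). Trp53inp1 was also lost where genes needed a mean count of at least 100 (-0.10, adjusted p = 0.0679).

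**Figure D3:**
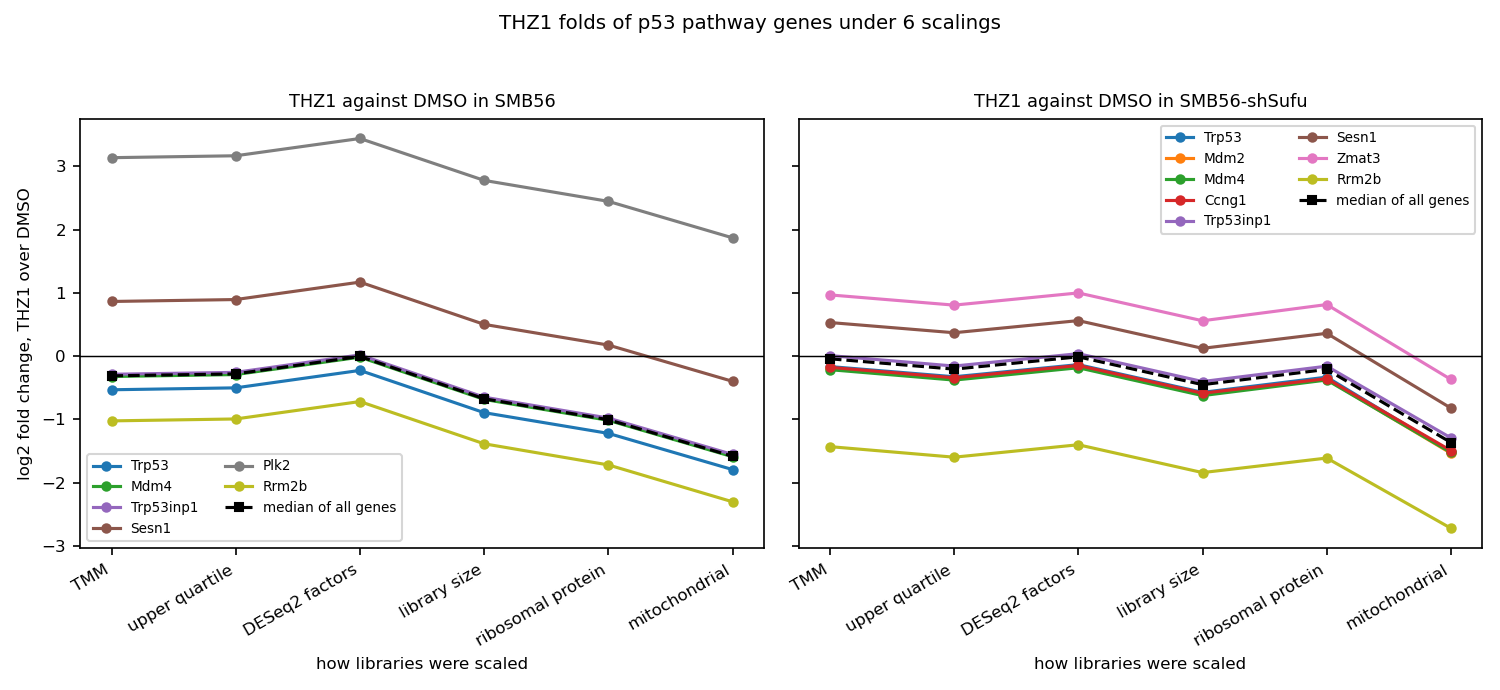
Log2 fold change with THZ1 (y axis) of each gene under 6 ways of scaling the libraries (x axis), in SMB56 (left) and SMB56-shSufu (right); the dashed line with squares is the median of all genes. Scaling moves all genes together: Rrm2b stays below and Plk2, Sesn1 and Zmat3 stay above that median, whereas Mdm4 and Trp53inp1 lie on or near it.

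The same dose of THZ1 in SMB56-shSufu asked whether these changes were also seen in the line with the hairpin against Sufu. Zmat3 and Sesn1 rose and Rrm2b fell, whereas no change was called for Trp53, Mdm2, Mdm4, Ccng1 or Trp53inp1. Of 8 genes tested 2 were called higher and 1 lower, where 61.9% of 11886 genes were called, 29.5% higher and 32.3% lower. DESeq2, which called 60.2% of genes, called the same 3 genes, and the fit of all 10 libraries, which called 82.0% of 7244, called Sesn1 and Rrm2b and held no Zmat3. The spread between libraries was wider here, with a common biological coefficient of variation of 13.3% against 3.02% for THZ1 in SMB56.

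Rrm2b was 13.9 and 19.0 CPM with DMSO and 6.67 and 5.48 with THZ1, a log2 fold change of -1.43 ± 0.23 (edgeR adjusted p = 0.000126), a fold higher than that of 7.37% of genes. Zmat3 was 33.8 and 30.8 CPM against 58.7 and 67.5, a change of 0.97 ± 0.15 (adjusted p = 0.000122), above 86.5% of genes. Neither pair overlapped, and both genes were called with each library left out in turn, although Zmat3 turned to -0.37 with mitochondrial scaling and lost its call on log2 FPKM (0.31 with a pseudocount of 1, limma adjusted p = 0.121). Sesn1 was 23.7 and 18.6 CPM against 32.1 and 29.0, without overlap, a change of 0.53 ± 0.17 (edgeR adjusted p = 0.0160) above 73.4% of genes. The call was lost without SMB56-shSufu DMSO replicate 2 (0.37, adjusted p = 0.0539), without THZ1 replicate 1 (0.47, 0.131), with upper quartile, library size or ribosomal protein scaling (adjusted p = 0.0708, 0.539 and 0.214), and the authors' deposited table has an adjusted p of 0.137. Mitochondrial scaling gave -0.82, and log2 FPKM with a pseudocount of 1 gave -0.16. The ratio of Sesn1 to Trp53 counts was 0.0985 and 0.0973 with DMSO and 0.162 and 0.155 with THZ1.

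Trp53 was 241 and 191 CPM with DMSO and 198 and 187 with THZ1 in SMB56-shSufu, so the groups overlapped (-0.17 ± 0.16, edgeR adjusted p = 0.375). Mdm4 was 202 and 236 CPM against 189 in both treated libraries, which lay below both controls (-0.22 ± 0.15, adjusted p = 0.224). Mdm2, at 80.5 and 70.2 CPM against 71.0 and 60.8, changed by -0.19 ± 0.15 (0.273), and Ccng1, at 34.2 and 37.4 against 34.7 and 28.5, by -0.18 ± 0.16 (0.352), each with overlapping groups. Trp53inp1 was 27.7 and 34.5 CPM against 31.8 and 30.7 (0.01 ± 0.16, adjusted p = 0.971). These 5 genes stood above 42.4% to 52.3% of all genes, near the middle. By library size, with mitochondrial scaling and on log2 FPKM all 5 were called lower (with mitochondrial scaling Trp53 at -1.52, Mdm4 at -1.52, Mdm2 at -1.54, Ccng1 at -1.50 and Trp53inp1 at -1.29), and upper quartile scaling called Mdm2 and Mdm4 lower (-0.36 and -0.38). Called lower over all 11886 genes were 5909 by library size, 9139 with mitochondrial scaling, 4601 by upper quartile and 6684 on log2 FPKM (pseudocount 1).

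Whether the THZ1 effect differed between the lines was tested as an interaction for the 5 genes in both tables. Mdm2, Ccng1 and Zmat3 could not be tested, since the table of THZ1 in SMB56, selected on that contrast, lacked them. Zmat3 rose with THZ1 in SMB56-shSufu (0.97 ± 0.15), and whether it differed between the lines is unknown. None of the 5 was called, where 18.3% of 8204 genes were, 10.4% with a higher and 7.89% with a lower effect in SMB56-shSufu. DESeq2 called none either, and 1 of the 5 genes (Sesn1) had an unadjusted edgeR p under 0.05. The effect in SMB56-shSufu minus that in SMB56 was -0.46 ± 0.19 for Sesn1 (edgeR adjusted p = 0.109), -0.53 ± 0.29 for Rrm2b (0.216) and 0.24 ± 0.16 for Trp53 (0.324). For Mdm4 it was -0.02 ± 0.14 (adjusted p = 0.923) and for Trp53inp1 0.16 ± 0.16 (0.493). Single libraries moved some of these values. Without SMB56-shSufu DMSO replicate 1, Rrm2b was at -0.75 and Trp53 at 0.40, and without replicate 2 of that group Sesn1 was at -0.65. Leaving out either library leaves that group no spread of its own, so a call gained in such a fit is no support. Ribosomal protein scaling, which moved the median of all genes to 0.67, called Trp53 (0.87), Trp53inp1 (0.80) and Mdm4 (0.62).

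Under DMSO, the hairpin line differed from its parent in both directions. Trp53inp1 was 2.87-fold lower and Zmat3 1.66-fold lower in SMB56-shSufu, and Trp53 was 1.58-fold higher. Of 8 genes 1 was called higher and 2 lower, where 40.6% of 9719 genes were called, 20.8% higher and 19.8% lower. The 2 tables were processed separately, and this comparison shares its SMB56 DMSO libraries with the GDC-0449 comparison. Normalized over all 10 libraries together, Trp53inp1 was 116 and 115 CPM in SMB56 and 35.4 and 44.7 in SMB56-shSufu, far apart, with a log2 fold change of -1.52 ± 0.13 (edgeR adjusted p = 0.00197), a fold higher than that of 1.69% of genes. For Zmat3, which is not in all 3 tables, the levels above from each table's own normalization were 65.5 and 73.9 CPM against 33.8 and 30.8 (-0.73 ± 0.11, adjusted p = 0.00564). Trp53 over all 10 libraries was 173 and 181 CPM in SMB56 and 308 and 248 in SMB56-shSufu, without overlap (0.66 ± 0.12, edgeR adjusted p = 0.0114). Its call was lost without SMB56 DMSO replicate 1 (0.63, adjusted p = 0.0517), and mitochondrial scaling turned it to -0.55. Trp53inp1 and Zmat3 were lower in all alternatives tried.

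The other 5 genes were not called between the lines, with Rrm2b at 0.56 ± 0.20 (edgeR adjusted p = 0.0696), Mdm2 at 0.22 ± 0.10 (0.131), Ccng1 at 0.19 ± 0.10 (0.194), Mdm4 at 0.17 ± 0.11 (0.243) and Sesn1 at -0.15 ± 0.15 (0.449). The fit of all 10 libraries called Rrm2b (0.56, adjusted p = 0.0203), and mitochondrial scaling called all 5 lower (from -1.36 for Sesn1 to -0.71 for Rrm2b). Over all 9719 genes mitochondrial scaling called 8591 lower. The SMB56-shSufu DMSO libraries differed from each other. With either left out that group has no spread of its own, so a call gained in such a fit is no support. Sesn1 was at -0.33 without replicate 1 of that group and at 0.01 without replicate 2.

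Set directly against GDC-0449 in SMB56, THZ1 left Rrm2b 2.09-fold lower (log2 fold change -1.07 ± 0.14, edgeR adjusted p = 2.25e-07) and Trp53inp1 1.69-fold lower (-0.76 ± 0.05, adjusted p = 5.89e-14). Mdm4 was 1.21-fold lower (-0.28 ± 0.04, adjusted p = 9.16e-07) and Sesn1 1.93-fold higher (0.95 ± 0.07, adjusted p = 1.32e-11). Trp53 did not differ past the threshold (-0.04 ± 0.05, edgeR adjusted p = 0.474). So 4 of 5 genes were called, where 90.3% of 7417 genes were, and all of these come through the table selected on the THZ1 contrast. The Trp53 value turned with scaling: it was called higher with DESeq2 size factors in edgeR (0.12, adjusted p = 0.0372) and lower by upper quartile (-0.39), library size (-0.67), ribosomal protein (-1.01) and mitochondrial scaling (-1.45). Sesn1 turned to -0.46 with mitochondrial and to -0.02 with ribosomal protein scaling, and on log2 FPKM with a pseudocount of 1 it was not called (0.10, limma adjusted p = 0.385) while Trp53 was called lower (-0.82). Each compound was given at a dose of its own, so the values compare these treatments as applied.

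A list of 30 other p53 targets showed both directions with THZ1 in either line. In SMB56 10 of 18 genes tested were called higher and 8 lower (44.3% and 55.2% of all genes), with a median log2 fold of 0.50 against -0.31 for all genes. The 8 include Perp, with 29 and 32 counts with DMSO and 2 and 1 with THZ1. It passed the filter on low counts only through its DMSO libraries, so its call is no support for a fall. In SMB56-shSufu 9 of 25 were higher and 10 lower (29.5% and 32.3% of all genes), with a median of -0.21 against -0.04. In the fit of all 10 libraries, which held 16 of these targets, 8 were higher and 6 lower there, with a median of 0.14 against -0.10. Over all genes it called 2774 higher and 3164 lower of 7244. That fit held fewer of the targets, so its median covers a different set of genes and does not show a move of the list. The genes higher in SMB56 were led by Bbc3 (PUMA, a BH3-only protein of mitochondrial cell death) at 2.42 ± 0.10, Cdkn1a (p21, an inhibitor of cyclin-dependent kinases) at 1.87 ± 0.09 and Ddit4 (REDD1, an inhibitor of mTORC1) at 1.52 ± 0.06. In SMB56-shSufu the leading genes were Ddit4 at 1.96 ± 0.14, Bbc3 at 1.53 ± 0.25 and Pmaip1 (NOXA, a BH3-only protein) at 1.26 ± 0.22. Lower in SMB56 were Pidd1 (a death domain protein that activates caspase 2) at -1.86 ± 0.08, Tigar (a regulator of glycolysis) at -1.30 ± 0.06 and Btg2 (an antiproliferative protein) at -1.29 ± 0.05. In SMB56-shSufu these were Pidd1 at -2.16 ± 0.19, Xpc (DNA damage recognition) at -1.15 ± 0.17 and Apaf1 (the apoptosome scaffold) at -1.06 ± 0.18. Tigar and Btg2 were called lower in SMB56-shSufu as well, and Xpc and Apaf1 in SMB56. With mitochondrial scaling the call of Ddit4 in SMB56 was lost (0.26), as were those of Ddit4 (0.63) and Bbc3 (0.18) in SMB56-shSufu, where Pmaip1 turned to -0.07. Mitochondrial scaling left 2 targets higher and 13 lower in SMB56 and 0 higher and 20 lower in SMB56-shSufu. Ribosomal protein scaling left 5 and 9 in SMB56 and 5 and 10 in SMB56-shSufu, and library size 4 and 14 in SMB56-shSufu. Over all genes, mitochondrial scaling called 1288 higher and 7289 lower of 9863 in SMB56, and 183 and 9139 of 11886 in SMB56-shSufu. Ribosomal protein scaling called 2657 and 5995 in SMB56 and 2322 and 4010 in SMB56-shSufu. Library size called 1956 and 5909 in SMB56-shSufu. The list counts thus moved along with all genes.

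Cdkn1a, the best known p53 target, was 16.8 and 14.1 CPM with DMSO and 53.9 and 58.8 with THZ1 in SMB56. In SMB56-shSufu it was 116 and 77.0 CPM with DMSO and 204 and 190 with THZ1, and the treated libraries were above the controls in either line (1.87 ± 0.09 and 1.03 ± 0.18, edgeR adjusted p = 5.06e-14 and 0.000305), although mitochondrial scaling turned the second value to -0.34. With GDC-0449 it was 17.7 and 16.6 CPM (0.15 ± 0.11, adjusted p = 0.271). Between the lines under DMSO, a value picked after it was seen, it was 8.09-fold higher in SMB56-shSufu (3.02 ± 0.23, edgeR adjusted p = 0.00160), while Ddit4 was 3.80-fold lower (-1.93 ± 0.09, adjusted p = 0.00108). In that comparison 4 of 22 targets were higher and 6 lower (20.8% and 19.8% of all genes), and with mitochondrial scaling 1 was higher and 20 lower. That scaling called 23 of 9719 genes higher and 8591 lower.

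**Figure D4:**
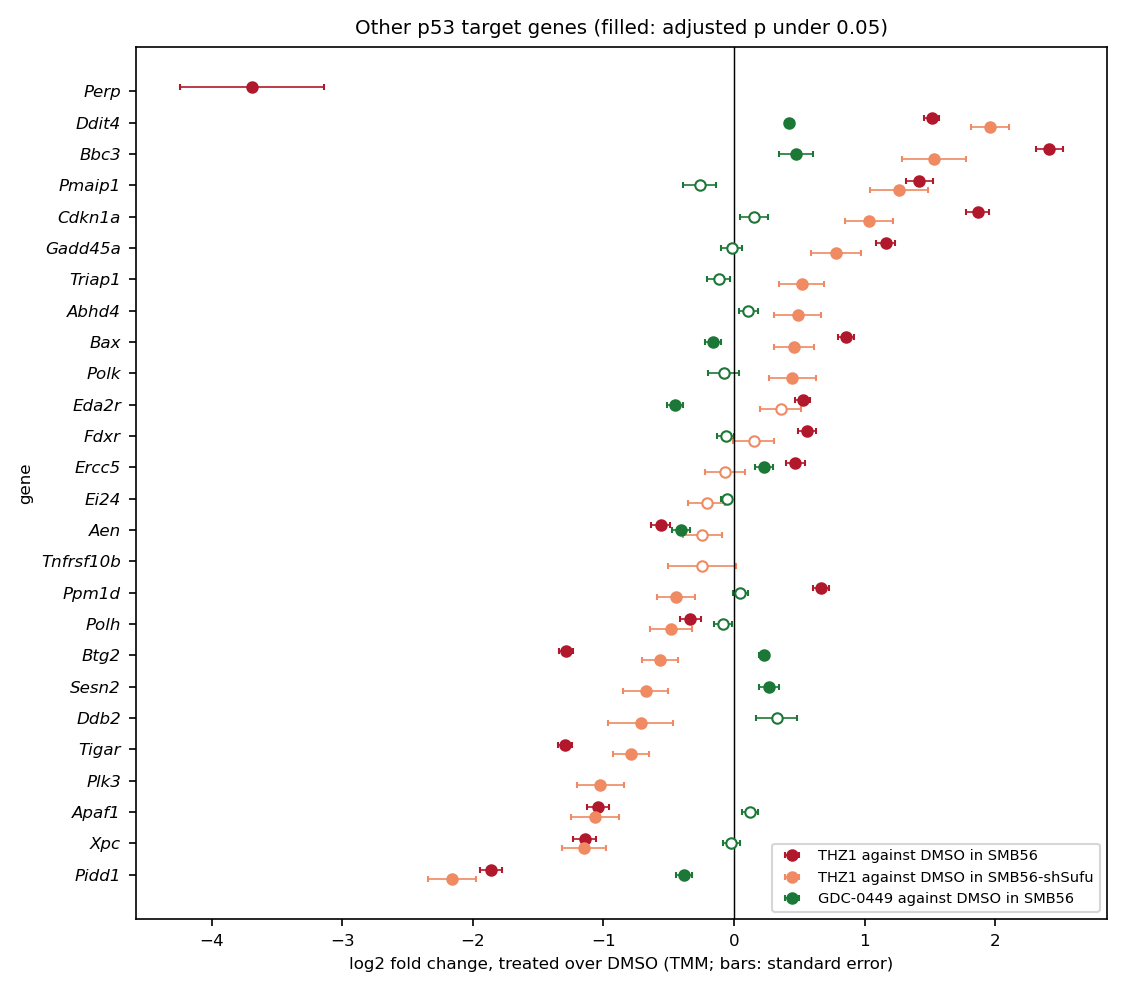
Log2 fold change over DMSO (x axis) of the other p53 target genes (y axis) with THZ1 in SMB56 and SMB56-shSufu and with GDC-0449 in SMB56; bars are standard errors and filled points have an edgeR adjusted p under 0.05. Bbc3, Ddit4, Cdkn1a and Pmaip1 lie to the right and Pidd1, Xpc and Apaf1 to the left with THZ1 in both lines under TMM scaling (with mitochondrial scaling Cdkn1a and Pmaip1 turn in SMB56-shSufu), and the GDC-0449 points stay between -0.45 and 0.48.

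With GDC-0449, 5 of 22 of these targets were called higher and 4 lower (17.5% and 18.8% of all genes), with a median of -0.02 against -0.01 for all genes. The higher ones of largest fold were Bbc3 (0.48 ± 0.13), Ddit4 (0.42 ± 0.04) and Sesn2 (0.27 ± 0.08), a relative of Sesn1. The lower ones were Eda2r (a death receptor, -0.45 ± 0.06), Aen (an exonuclease of cell death, -0.41 ± 0.07) and Pidd1 (-0.38 ± 0.06). Bbc3 and Sesn2 lost the call with some single libraries left out (highest edgeR adjusted p = 0.0593 and 0.0740). DESeq2 called 2 targets higher and 3 lower, and the fit of all 10 libraries 1 and 0 of 16. Mitochondrial scaling gave 2 and 9, without Sesn2 (0.15), and log2 FPKM 2 and 1. Over all 10008 genes, DESeq2 called 681 higher and 978 lower, and mitochondrial scaling 485 and 3736. Log2 FPKM with a pseudocount of 1 called 248 and 386, and the fit of all 10 libraries 38 and 107 of 7244.

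Of 27 regulators and cofactors of p53, 11 of 21 tested were higher and 9 lower with THZ1 in SMB56 (44.3% and 55.2% of all genes), and 6 of 24 higher and 7 lower in SMB56-shSufu (29.5% and 32.3%). The median log2 fold was 0.26 and 0.01, against -0.31 and -0.04 for all genes. Trp53bp2 (ASPP2, which steers p53 towards death genes) rose in both lines (1.62 ± 0.05 and 1.12 ± 0.14), as did Cdkn2a (0.60 ± 0.06 and 0.83 ± 0.18), whose p19Arf product inhibits Mdm2, although mitochondrial scaling turned Cdkn2a in both lines (-0.68 and -0.54) and Trp53bp2 in SMB56-shSufu (-0.23). The deacetylase Sirt1 rose by 1.37 ± 0.06 in SMB56 and by 0.44 ± 0.15 in SMB56-shSufu, and was called higher in neither with mitochondrial scaling (0.11 in SMB56). The kinase Hipk2, which the table of THZ1 in SMB56 lacked, rose by 1.13 ± 0.20 in SMB56-shSufu, where mitochondrial scaling turned it to -0.15. The acetyltransferase Kat5 (Tip60) fell in both (-1.69 ± 0.10 and -1.98 ± 0.17), as did the checkpoint kinase Chek2 (-1.22 ± 0.10 and -1.14 ± 0.16). The acetyltransferase Kat8 also fell in both (-1.06 ± 0.10 and -1.60 ± 0.21). Trp73, a p53 paralog, was lower in SMB56 (-1.37 ± 0.15) and not called in SMB56-shSufu (-0.03 ± 0.23). With mitochondrial scaling 1 was higher and 19 lower in SMB56, and 0 and 20 in SMB56-shSufu, and ribosomal protein scaling left 2 and 15, and 4 and 10. Mitochondrial scaling called 1288 of 9863 genes higher and 7289 lower in SMB56, and 183 and 9139 of 11886 in SMB56-shSufu. For ribosomal protein scaling these counts over all genes were 2657 and 5995, and 2322 and 4010.

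With GDC-0449, 3 of 23 regulators were higher and 6 lower (17.5% and 18.8% of all genes), with a median of -0.03. Ppp1r13l (iASPP, an inhibitor of p53) fell by 0.55 ± 0.13 on the log2 scale, and the damage kinases Atm and Chek1 by 0.31 ± 0.04 and 0.30 ± 0.07. The ubiquitin ligase Rchy1 (0.25 ± 0.07), Trp53bp1 (0.13 ± 0.04) and Crebbp (0.13 ± 0.04) were higher, of which Rchy1 and Crebbp lost the call with some single libraries left out (highest edgeR adjusted p = 0.0804 and 0.201). DESeq2 called 0 regulators higher and 5 lower, the fit of all 10 libraries 0 and 0 of 20, mitochondrial scaling 0 and 13, and log2 FPKM 0 and 1. The counts over all genes are those given above for the targets with GDC-0449. In the difference of the THZ1 effects, 1 of 17 targets was higher and 6 lower in SMB56-shSufu, and 1 of 21 regulators higher and 7 lower, where 10.4% of all genes were higher and 7.89% lower. Ribosomal protein scaling changed this to 4 and 1 targets and 8 and 0 regulators, mitochondrial scaling to 0 and 1 targets and 0 and 0 regulators, and log2 FPKM to 0 and 2 targets and 0 and 3 regulators. Over all 8204 genes, ribosomal protein scaling called 4400 higher and 39 lower, and mitochondrial scaling 77 and 35. Log2 FPKM with a pseudocount of 1 called 325 and 149.

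Across the 10 libraries, the genes whose log2 CPM was most like that of Trp53 were Nsf (Pearson r = 0.987), Smyd5 (0.986) and Lsp1 (0.985), among 6859 genes present in all 3 tables. For Mdm4 they were Neurod4 (0.889), Acox3 (0.887) and Pot1b (0.879). These are descriptions over 5 groups whose libraries share line, treatment and table, and Mdm2, absent from 1 table, has no such value.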

How the data were processed

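The deposited tables hold whole-number read counts per gene and library. Beside them stand FPKM values that the authors computed. Each table ends with a log2 fold change and a p-value, raw and adjusted, of the authors' comparison. Cufflinks 2.2.1, DESeq2 1.20.0, STAR 2.5.3a and the build hg19 are named, per the submitters' processing notes, with no role stated. That build is human and the gene identifiers are mouse, so no coordinates were taken from the files. The sources used here do not give the strand setting of the counts, and reads of Trp53 and Mdm4 could be shared with their pseudogenes. A member was found by symbol in each table.

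From the deposited counts, each comparison was fitted with its own libraries (edgeR 4.0.16 in R 4.3.3, quasi-likelihood F test, TMM, filterByExpr), with Benjamini-Hochberg adjustment over all genes tested and a threshold of 0.05. The standard error is the fold divided by the root of F. The authors' log2 folds were turned to treated over DMSO by their sign against the counts. DESeq2 1.42.0, limma 3.58.1 on log2 FPKM with a pseudocount of 1 or 0.1, a fit of all 10 libraries, other scalings and filters, and each library left out in turn (a lone library is then assumed to vary like the other group) were alternatives. Steps were tested on simulated data with 200 changed genes, raised or lowered at random. That setting does not test how the choice of scaling acts where most genes change, as with THZ1. The members, lists and tests were chosen with earlier results of these data known. Genes of each list were named as the 3 called genes of largest fold in each direction with a mean CPM of at least 5. No other column of per-sample values was present. Without a spike-in, folds are relative to the other genes.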

Additional observations from a re-analysis of the deposited data

Results flagged for a closer look

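The THZ1 effect differed between the lines, by the edgeR interaction term, for 15 genes of the 2 lists (17 targets and 21 regulators tested). It was called for none of the 5 members that could be tested, where 18.3% of all genes were called. Most of these calls depend on scaling: mitochondrial scaling left 1 target and 0 regulators, and log2 FPKM 2 targets and 3 regulators. Over all 8204 genes, mitochondrial scaling called 112 and log2 FPKM 450 and 474 (pseudocounts 0.1 and 1), against 1504. Only genes in the table of THZ1 in SMB56, selected on an effect in that line, could be tested. The part of this selection in the differences was not tested. Each value is the log2 effect in SMB56-shSufu minus that in SMB56. Among the other p53 targets it was -1.24 ± 0.14 for Ppm1d, the phosphatase that switches off p53 signalling (edgeR adjusted p = 0.00146). Ppm1d, named here after its values were seen, was 62.3 and 63.4 CPM with DMSO and 95.6 and 104 with THZ1 in SMB56, and 57.3 and 51.2 against 40.9 and 38.8 in SMB56-shSufu, so it moved in opposite directions with TMM scaling. Mitochondrial scaling turned its fold in SMB56 to -0.60, while the difference between the lines was called in all 5 other scalings and with each of the 8 libraries left out. In SMB56-shSufu alone its fall lost the call without some single libraries (highest edgeR adjusted p = 0.149). The difference was -1.02 for Bbc3, -0.96 for Cdkn1a, -0.67 for Ercc5, -0.54 for Fdxr, -0.53 for Bax and 0.59 for Btg2. Among regulators and cofactors it was -1.06 for Sirt1, -0.92 for Rpl5, -0.89 for Rpl23, -0.67 for Kat8, -0.63 for Trp53bp2, -0.45 for Rfwd2, -0.44 for Trp53bp1 and 1.21 for Trp73. Of these 15 genes, Ppm1d and Sirt1 were called with every library left out in turn, although the call of Sirt1 was lost with mitochondrial and with ribosomal protein scaling, and the other 13 were lost without at least 1 library.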

How the results depend on the processing

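With all 10 libraries fitted together, 5883 genes and 3 members were called for THZ1 in SMB56 (9813 and 6 in the fit by table) and 145 and 1 for GDC-0449 (3633 and 6). For GDC-0449, DESeq2 called 1659 genes and 3 members, and mitochondrial scaling 4221 genes and 3 members. Limma on log2 FPKM called 624 and 634 genes (pseudocounts 0.1 and 1) and 2 members with either. For THZ1 in SMB56-shSufu, library size and mitochondrial scaling called 7 members and log2 FPKM 6, against 3. Over all genes library size called 7865, mitochondrial scaling 9322 and log2 FPKM 7730 and 7740 (pseudocounts 0.1 and 1), against 7355. For the difference between the lines (1504 genes, 0 members), log2 FPKM called 450 and 474 genes, mitochondrial scaling 112, and ribosomal protein scaling 4439 and 3 members. Between the lines under DMSO (3948 genes, 3 members), mitochondrial scaling called 8614 and 7. With 1 library left out, members called ran from 3 to 6 for GDC-0449, genes from 250 to 2859 and members from 0 to 2 for the difference, and genes from 1806 to 7465 and members from 2 to 8 between the lines. The cause was not tested.

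Mitochondrial scaling turned Sesn1 (-0.40) with THZ1 in SMB56, Mdm2 (-0.032) with GDC-0449, Sesn1 (-0.82), Trp53inp1 (-1.29) and Zmat3 (-0.37) with THZ1 in SMB56-shSufu, Mdm4 in the difference (0.067), Sesn1 against GDC-0449 (-0.46), and Ccng1 (-1.06), Mdm2 (-1.002), Mdm4 (-1.09), Rrm2b (-0.71) and Trp53 (-0.55) between the lines. Ribosomal protein scaling turned Trp53inp1 (-0.16) in SMB56-shSufu, Mdm4 (0.62), Rrm2b (0.091) and Sesn1 (0.16) in the difference, Mdm4 (-0.0017) between the lines and Sesn1 (-0.0197) against GDC-0449. Log2 FPKM, with pseudocounts 0.1 and 1, turned Rrm2b (-0.0097 and -0.0071) with GDC-0449, Sesn1 (-0.18 and -0.16) and Trp53inp1 (-0.60 and -0.53) in SMB56-shSufu and Mdm4 (0.13 and 0.12) in the difference. Trp53inp1 in SMB56-shSufu also turned by library size (-0.40) and upper quartile (-0.16), and Mdm4 in the difference by library size (0.024). DESeq2 size factors and the DESeq2 test turned Trp53inp1 with THZ1 in SMB56 (0.0188 and 0.0189) and Trp53 against GDC-0449 (0.12 in either). With 1 library left out, values ran from -0.32 to 0.0101 for Trp53 and from -0.14 to 0.17 for Trp53inp1 in SMB56-shSufu, from -0.14 to 0.073 for Mdm4 in the difference, from -0.33 to 0.0107 for Sesn1 between the lines and from -0.11 to 0.033 for Trp53 against GDC-0449. Log2 FPKM was not run between the lines. The cause was not tested.

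The replicate numbers share no stated origin, and deviations of same-numbered libraries correlated by 0.016 to 0.149, so they were not taken as pairs. With the replicate number as a block, 9820 genes were called for THZ1 in SMB56, 3965 for GDC-0449, 7917 for THZ1 in SMB56-shSufu, 1660 for the difference, 4395 between the lines and 6708 for THZ1 set against GDC-0449. Among members, the block added Rrm2b between the lines (0.55, edgeR adjusted p = 0.0273). With 2 libraries a group, low-count genes such as Plk2 and Rrm2b have the widest errors, and a missed call does not show an unchanged level.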
